A study of Mus musculus with 45 samples.

Results

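Integrins and laminins were described in 45 mouse mammary tumours. The genes were chosen by name: every gene whose probe set carries a single symbol of the form Itga, Itgb, Lama, Lamb or Lamc with its number or letter. This gave 36 of the 18820 genes on the array, and 33 of them passed a filter on dim genes that kept 12123 genes. The genes not kept were Itga10, Itgad and Lamc3, which lay above the median of the whole table, 5.67, in 4, 1 and 1 tumours, where 8 were needed. Itgae was at that limit with 8 tumours. Where a gene had several probe sets, the one with the highest mean was used.

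Each tumour grew from a fragment of Trp53-null mammary tissue of BALB/c donors, placed in the inguinal fat pad of a wild-type BALB/c female host aged 10 weeks. When the host was 3 weeks old its own epithelium had been cleared from that pad. Hosts, and not the grafts, were exposed to silicon ions or a sham procedure 3 days before grafting. Tumours were watched for up to 600 days and taken at 1 cm3. All 4 groups thus shared the Trp53 deletion in the graft, the strain and the cleared fat pad, and differed in the labelled host exposure: 18 tumours came from sham hosts, 9 from hosts given 10 cGy, 10 from hosts given 30 cGy and 8 from hosts given 80 cGy. Silicon ions are a form of densely ionizing radiation, and the comparison of groups addresses whether tumours differ when the host, not the graft, was exposed. Nothing in the labels ties tumours to separate donors, so p-values measure the spread between these tumours. In 8 pairs the tumours share a description code apart from a final L or R. Whether such a pair came from 1 host is not stated. Trp53 itself was not analysed here.

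Integrins are cell surface receptors made of 1 alpha and 1 beta chain. Laminins are the ligands of many of them: proteins of an alpha, a beta and a gamma chain that form the sheet, or basement membrane, on which epithelium, vessels and muscle rest. In the mammary gland the basal cell layer holds onto this sheet through hemidesmosomes, junctions built on the integrin of Itga6 and Itgb4 and on a laminin that holds Lama3 and Lamb3. Leukocytes carry their own integrins, built on Itgb2, Itgb7 or Itga4, and platelets carry that of Itga2b with Itgb3. The genes were therefore read in 4 forms. Basal and epithelial genes were Itga2, Itga3, Itga6, Itgb4, Itgb6, Lama3, Lama5 and Lamb3 (8 genes kept). Stromal, vascular and muscle genes were Itga1, Itga5, Itga7, Itga8, Itga9, Itga11, Itgb3, Lama2, Lama4, Lamb1, Lamb2 and Lamc1 (12 kept). Leukocyte and platelet genes were Itga2b, Itga4, Itgae, Itgal, Itgam, Itgax, Itgb2 and Itgb7 (8 kept). Itgav, Itgb1, Itgb5, Itgb8 and Lama1 were left as broad or other (5 kept).

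Promoters of 4 genes are shown. Itgam and Itgax are neighbours on chromosome 7 that behaved differently, and Lamb3 and Itgb6 are epithelial genes that varied widely between tumours. Each line gives the 250 bases before 1 start of the gene in the RefSeq table, 5′ to 3′ on the gene's own strand, in GRCm38.p6. Capitals mark matches on either strand to TGANTCA, the letters bound by AP-1 factors, or to GAGGAA, the core bound by PU.1, a factor of myeloid cells. The windows are chr7:128062390-128062639 on the plus strand for Itgam, chr7:128129300-128129549 on the plus strand for Itgax, chr1:193301744-193301993 on the plus strand for Lamb3 and chr2:60722604-60722853 on the minus strand for Itgb6.
Itgam: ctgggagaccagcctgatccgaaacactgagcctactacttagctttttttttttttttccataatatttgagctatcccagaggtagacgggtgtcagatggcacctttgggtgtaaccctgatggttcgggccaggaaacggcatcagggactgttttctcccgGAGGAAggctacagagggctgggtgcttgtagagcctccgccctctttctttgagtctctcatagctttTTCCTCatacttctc
Itgax: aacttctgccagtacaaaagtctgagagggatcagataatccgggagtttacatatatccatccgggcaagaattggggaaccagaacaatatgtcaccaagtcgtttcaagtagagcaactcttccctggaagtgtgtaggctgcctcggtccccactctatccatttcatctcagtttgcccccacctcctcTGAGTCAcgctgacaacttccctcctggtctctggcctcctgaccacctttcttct
Lamb3: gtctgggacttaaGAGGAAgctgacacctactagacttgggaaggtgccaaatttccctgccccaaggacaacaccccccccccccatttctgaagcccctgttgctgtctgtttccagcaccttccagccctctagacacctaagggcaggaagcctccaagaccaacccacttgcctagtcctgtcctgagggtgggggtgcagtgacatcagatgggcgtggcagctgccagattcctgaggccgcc
Itgb6: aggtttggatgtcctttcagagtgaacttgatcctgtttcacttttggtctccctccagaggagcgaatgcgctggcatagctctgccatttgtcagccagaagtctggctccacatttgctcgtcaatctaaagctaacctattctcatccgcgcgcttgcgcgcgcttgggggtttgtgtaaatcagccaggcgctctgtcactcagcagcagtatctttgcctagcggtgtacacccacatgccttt

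GAGGAA stood in the Itgam window 2 times and not in that of Itgax, which held TGANTCA 1 time. The printed Lamb3 window held GAGGAA 1 time and that of Itgb6 held neither. Lamb3 and Itgb6 each had a second window in the table, not printed, before another start: that of Lamb3 held GAGGAA 0 times and that of Itgb6 1 time. For these genes the match thus depended on which start was taken. RefSeq promoters were matched for 23 of the 36 genes, with 26 windows. GAGGAA was in 13 of those 26 windows (50%), against 23.3% of 32851 promoters of the same length, and TGANTCA in 1 (3.85%) against 6.75%. CACCTG, the letters bound by SNAIL factors, was in 8 windows (30.8%) against 17.2%, and GGGCGG, the letters bound by SP1, in 9 (34.6%) against 32.7%. No match overlapped that of another of these motifs in the 4 printed windows, where the Itgam window also held GGGCGG 1 time. Among leukocyte genes, the windows of Itga4 and Itgb7 held GAGGAA 0 times. It also stood in windows of other forms, such as those of Itga5, Itga11 and Lama2. A match describes letters, not a bound site, and both strands were searched. The part of these motifs in the behaviour of any gene was not tested.

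The 33 genes varied widely from tumour to tumour, and most of all the epithelial ones. Their median standard deviation (SD) over the 45 tumours was 0.83 on the log2 scale, against 0.43 over all kept genes. It was 1.16 in the basal and epithelial genes, 0.77 in stromal, vascular and muscle genes, 0.57 in leukocyte and platelet genes and 0.55 in the remaining 5. The 8 largest SDs were those of Lamb3 (1.57), Itgb4 (1.54), Itga8 (1.53), Lama1 (1.5), Lama3 (1.45), Itga7 (1.36), Itgb6 (1.32) and Itgam (1.23).

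**Figure D1:**
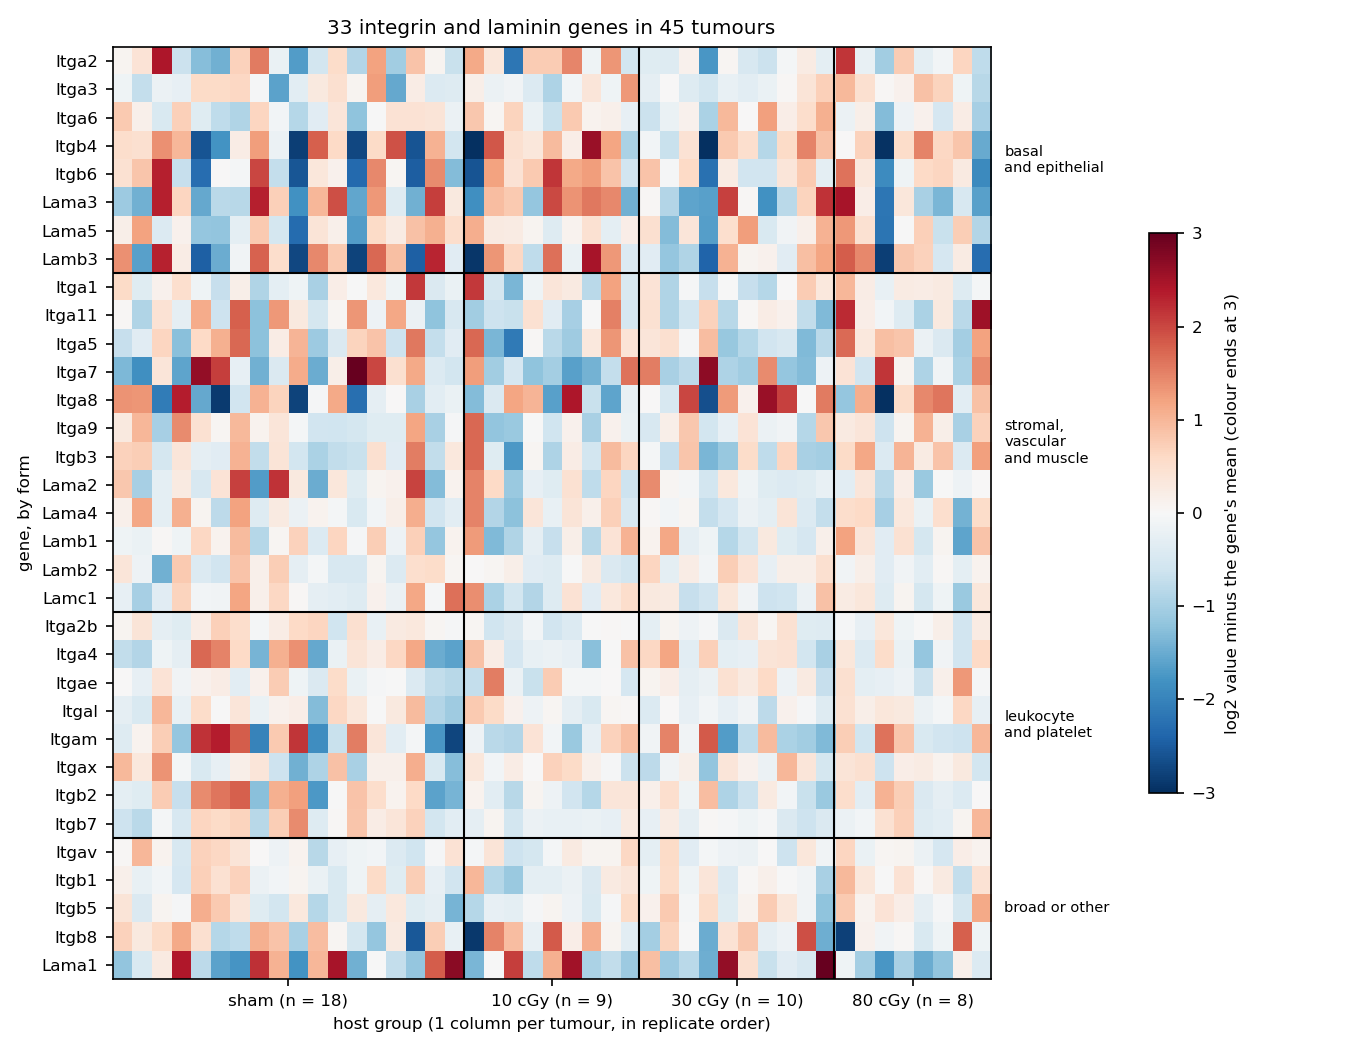
Log2 value minus the gene's mean over the 45 tumours for the 33 kept genes (rows, by form), with 1 column per tumour, grouped by host exposure. Itgb4, Itgb6, Lama3 and Lamb3 are low together in single tumours of every group, and no group is of 1 colour.

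Laminin chains of epithelium come first. Lamb3, a chain found in the laminin of hemidesmosomes, had lowest, median and highest log2 values of 4.94, 8.09 and 10.02 in sham tumours, 4.81, 8.34 and 10.18 at 10 cGy, 5.31, 7.60 and 8.90 at 30 cGy and 4.90, 8.19 and 9.55 at 80 cGy. Its partner chain Lama3 had values of 5.11, 6.88 and 9.26 in sham tumours, 5.09, 7.85 and 8.92 at 10 cGy, 5.11, 6.53 and 9.10 at 30 cGy and 4.75, 6.20 and 9.40 at 80 cGy. Both were low in some tumours and high in others in each of the 4 groups, and the groups overlapped over most of their range. Lama5, the alpha chain of most mature epithelial basement membranes, ran from 6.00 to 9.62 over the 45 tumours.

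Receptors of epithelium showed the same wide range. Itgb4, the beta chain of the hemidesmosome receptor, had lowest, median and highest values of 6.35, 9.69 and 11.08 in sham tumours, 5.82, 9.67 and 11.76 at 10 cGy, 5.59, 9.64 and 10.67 at 30 cGy and 6.21, 9.76 and 10.68 at 80 cGy. Itgb6, which with Itgav forms an epithelial receptor that releases active TGF-beta, had values of 4.40, 7.00 and 9.29 in sham tumours, 4.38, 7.82 and 9.11 at 10 cGy, 4.74, 7.07 and 7.81 at 30 cGy and 5.05, 7.26 and 8.59 at 80 cGy. Group medians of Itgb4 ran from 9.64 to 9.76 while single tumours of 1 group differed by over 4 log2 units. Itga6, the alpha chain that pairs with Itgb4 or Itgb1, was steadier, with values of 9.86, 11.03 and 11.86 in sham tumours, 10.40, 11.17 and 11.88 at 10 cGy, 10.14, 11.25 and 12.32 at 30 cGy and 9.77, 10.92 and 11.31 at 80 cGy. Itga2, a collagen receptor chain, ran from 6.19 to 10.80, and Itga3, a laminin receptor chain, had values of 7.70, 9.23 and 10.56 in sham tumours, 8.38, 9.21 and 10.61 at 10 cGy, 8.76, 9.10 and 10.01 at 30 cGy and 8.48, 9.61 and 10.28 at 80 cGy.

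Among stromal, vascular and muscle genes, Itga7 and Itga8 varied most. Lama2, the laminin alpha chain of muscle and of connective tissue, had lowest, median and highest values of 5.37, 7.17 and 9.22 in sham tumours, 5.95, 6.80 and 8.54 at 10 cGy, 6.5, 6.88 and 8.47 at 30 cGy and 5.94, 6.97 and 7.43 at 80 cGy. Lama4, that of vessel walls, had values of 8.18, 8.99 and 10.18 in sham tumours, 7.73, 9.12 and 10.46 at 10 cGy, 8.26, 8.74 and 9.36 at 30 cGy and 7.56, 9.38 and 9.56 at 80 cGy. Lamc1, the gamma chain that most laminins share, had values of 8.79, 9.73 and 11.43 in sham tumours, 8.83, 9.45 and 11.17 at 10 cGy, 9.09, 9.65 and 10.67 at 30 cGy and 8.68, 9.76 and 10.12 at 80 cGy. In these laminin chains too, every dose group overlapped the sham group. Lamb1 ran from 7.40 to 10.26 and Lamb2 from 7.58 to 9.88. Itga11, a collagen receptor chain of fibroblasts, had values of 5.42, 6.58 and 8.44 in sham tumours, 5.60, 6.14 and 8.15 at 10 cGy, 5.30, 6.37 and 7.32 at 30 cGy and 5.68, 6.70 and 9.18 at 80 cGy. Itga7, a laminin receptor chain of muscle, had values of 4.28, 6.08 and 9.34 in sham tumours, 4.48, 5.10 and 7.76 at 10 cGy, 4.83, 5.26 and 8.81 at 30 cGy and 5.18, 6.10 and 8.26 at 80 cGy. Itga8, a mesenchymal receptor chain for nephronectin, had values of 4.76, 7.39 and 9.99 in sham tumours, 6.00, 7.19 and 10.06 at 10 cGy, 4.99, 8.33 and 10.21 at 30 cGy and 4.34, 8.35 and 9.22 at 80 cGy. Itga7 values were spread by over 3 log2 units within each of the 4 groups. Itgb3, the beta chain of platelet and vessel receptors, had values of 6.98, 7.64 and 9.48 in sham tumours, 6.21, 7.99 and 9.65 at 10 cGy, 6.56, 7.21 and 8.77 at 30 cGy and 7.53, 8.66 and 9.16 at 80 cGy. Itga1, a collagen receptor chain, ran from 6.28 to 9.78, Itga5, the main fibronectin receptor chain, from 7.46 to 11.29, and Itga9, a receptor chain for tenascin-C, from 6.68 to 9.59.

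Among leukocyte genes, Itgam, the alpha chain of the complement receptor of macrophages and neutrophils, had lowest, median and highest values of 5.62, 8.40 and 10.75 in sham tumours, 7.28, 8.24 and 9.28 at 10 cGy, 6.70, 7.95 and 10.23 at 30 cGy and 7.77, 8.53 and 10.01 at 80 cGy. Itgb2, the beta chain that Itgal, Itgam, Itgax and Itgad share, had values of 6.59, 8.63 and 10.11 in sham tumours, 7.47, 8.15 and 8.69 at 10 cGy, 7.2, 8.20 and 9.23 at 30 cGy and 7.88, 8.19 and 9.36 at 80 cGy. Sham tumours held both the lowest and the highest values of Itgam and Itgb2. Itgax, the alpha chain used to mark dendritic cells and some macrophages, had values of 6.92, 8.40 and 9.70 in sham tumours, 7.72, 8.50 and 9.05 at 10 cGy, 7.18, 8.36 and 9.34 at 30 cGy and 7.73, 8.58 and 8.82 at 80 cGy. Itgal, the alpha chain of the lymphocyte receptor for Icam1, had values of 5.38, 6.74 and 7.68 in sham tumours, 6.22, 6.74 and 7.46 at 10 cGy, 5.90, 6.51 and 6.81 at 30 cGy and 6.43, 6.90 and 7.30 at 80 cGy. Itgb7, which pairs with Itga4 or Itgae, had values of 4.58, 5.55 and 6.82 in sham tumours, 4.87, 5.19 and 5.68 at 10 cGy, 4.80, 5.23 and 5.65 at 30 cGy and 5.02, 5.41 and 6.40 at 80 cGy. These genes overlapped between all groups. Itga2b, the alpha chain of the platelet fibrinogen receptor, had values of 5.07, 5.87 and 6.36 in sham tumours, 5.07, 5.58 and 5.71 at 10 cGy, 5.23, 5.56 and 6.11 at 30 cGy and 5.07, 5.63 and 6.00 at 80 cGy. It was above the median of the whole table in 21 of 45 tumours, and all 9 tumours at 10 cGy lay below the sham median of 5.87. Itga4, the receptor chain for Vcam1, ran from 5.83 to 9.16, and Itgae, the chain of E-cadherin-binding T cells, from 4.41 to 6.77.

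Of the other genes, Itgb1, the beta chain with the most partners, had lowest, median and highest values of 10.09, 10.55 and 11.40 in sham tumours, 9.53, 10.37 and 11.65 at 10 cGy, 9.68, 10.60 and 11.22 at 30 cGy and 9.95, 10.95 and 11.63 at 80 cGy. A second Itgb1 probe set was dim, at 5.00 to 6.04, and followed the first with a Pearson r of 0.524 over the 45 tumours. Lama1, a laminin alpha chain mainly of embryonic basement membranes, had values of 4.40, 5.95 and 8.90 in sham tumours, 4.81, 5.46 and 8.70 at 10 cGy, 4.73, 5.78 and 10.16 at 30 cGy and 4.43, 5.19 and 6.33 at 80 cGy. At 80 cGy its highest value, 6.33, lay below the highest of each other group, though the ranges overlapped. Itgav ran from 9.21 to 11.03, Itgb5 from 9.13 to 11.66 and Itgb8, which like Itgb6 pairs with Itgav to release TGF-beta, from 5.13 to 9.95. The genes not kept ran from 4.25 to 7.91 (Itga10), 3.69 to 6.10 (Itgad) and 4.39 to 6.04 (Lamc3).

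The first comparison was of irradiated with sham hosts. No integrin or laminin gene passed an adjusted p of 0.05 between tumours of silicon-exposed and sham hosts, and neither did any other gene: 0 of 12123 (0%) were called by limma, which was also so at 10, 30 and 80 cGy, in the test of any difference among the 4 groups and in the slope on dose. In all 33 genes each dose group overlapped the sham group, as it did in every kept gene (0% did not overlap at each dose). The lowest adjusted p among them was 0.796 for exposed against sham hosts (unweighted mean of the 3 doses), 0.991 at 10 cGy, 0.990 at 30 cGy, 0.782 at 80 cGy, 0.985 among the 4 groups and 0.762 for the dose slope. At an unadjusted p under 0.05, the exposed hosts differed from sham in 1 of 33 genes against 706 of 12123 (5.82%), and the 10 cGy hosts in 1 against 443 (3.65%). At 30 cGy it was 0 against 540 (4.45%), at 80 cGy 0 against 845 (6.97%), in the test among the 4 groups 1 against 501 (4.13%) and in the dose slope 0 against 901 (7.43%). These shares of the members are near or below those of all genes.

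That 1 gene was Itga2b each time. Its log2 difference, exposed minus sham, was -0.27 ± 0.10 (standard error, SE; limma unadjusted p = 0.0098, adjusted p = 0.796). The 10 cGy difference was -0.39 ± 0.14 (limma unadjusted p = 0.0061, adjusted p = 0.991), that at 30 cGy was -0.24 ± 0.13 and that at 80 cGy -0.19 ± 0.14, none of them past the adjusted threshold. Among other cells of the sample, markers of mast cells (4 of 5 listed genes kept) had scores, each the mean over its markers of the log2 value minus that marker's mean over the 45 tumours, of 0.46 ± 1.72 (SD, n = 18) in sham tumours, -0.79 ± 0.63 (n = 9) at 10 cGy, -0.40 ± 0.79 (n = 10) at 30 cGy and 0.35 ± 0.93 (n = 8) at 80 cGy. The slope of Itga2b on that score was 0.07 ± 0.04 per log2 unit and was not called (adjusted p = 0.24). Itga2b fell with the basal epithelium score (-0.09 ± 0.02, adjusted p = 0.0059) and with the epithelial junction score (-0.08 ± 0.03, adjusted p = 0.047). The mean basal score was 0.23 in sham tumours, 0.53 at 10 cGy, -0.13 at 30 cGy and -0.95 at 80 cGy. Platelet markers (2 of 6 kept) had mean scores of 0.25 ± 1.52 (SD) in sham tumours, -0.07 ± 1.63 at 10 cGy, -0.66 ± 1.17 at 30 cGy and 0.34 ± 1.18 at 80 cGy. They ranged from -2.60 to 3.27 in sham tumours, -1.75 to 3.36 at 10 cGy, -1.88 to 1.35 at 30 cGy and -0.78 to 2.61 at 80 cGy. No slope on the platelet score was fitted, and the part of these cell types in the result was not tested.

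The other genes with the smallest p in each comparison also missed the threshold. For exposed against sham hosts these were Lamc1 (-0.24 ± 0.19) and Itgb7 (-0.18 ± 0.15). At 10 cGy they were Itgb7 (-0.28 ± 0.20) and Itga7 (-0.73 ± 0.55), and at 30 cGy Itga8 (0.98 ± 0.59) and Itgb7 (-0.31 ± 0.19). At 80 cGy they were Lama1 (-1.02 ± 0.62), Itgb3 (0.55 ± 0.33) and Itga3 (0.36 ± 0.26), with adjusted p of 0.782, 0.782 and 0.829. The Itga3 difference turned to -0.09 without the 10 tumours whose skeletal muscle or fat cell score exceeded 2.

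By form, the 8 basal and epithelial genes all had a higher mean at 10 cGy than in sham tumours, with a median difference of 0.33 and a range from 0.08 to 0.71, and 0 of 8 passed the test. The median over all genes was 0.01 in that comparison, where 51.8% of them were higher. Group medians of Itgb4 (9.67 against 9.69) and Itga3 (9.21 against 9.23) were lower at 10 cGy than in sham tumours. Those of the other basal and epithelial genes were higher. An epithelial junction score under -1 was found in 5 of 18 sham tumours and 1 of 9 at 10 cGy. The part of these tumours in the means was not tested. At 30 cGy 5 of these 8 basal and epithelial genes were higher (median 0.04) and at 80 cGy 5 of 8 (median 0.06). Of all genes, 49.2% were higher at 30 cGy and 56.6% at 80 cGy. Of 12 stromal, vascular and muscle genes, 3 were higher at 10 cGy (median -0.16), 2 at 30 cGy (median -0.21) and 6 at 80 cGy (median 0.01). Of 8 leukocyte and platelet genes, 3, 2 and 5 were higher at the 3 doses, with medians of -0.13, -0.22 and 0.08. The genes of a form are correlated with each other, so these counts are not independent observations.

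**Figure D2:**
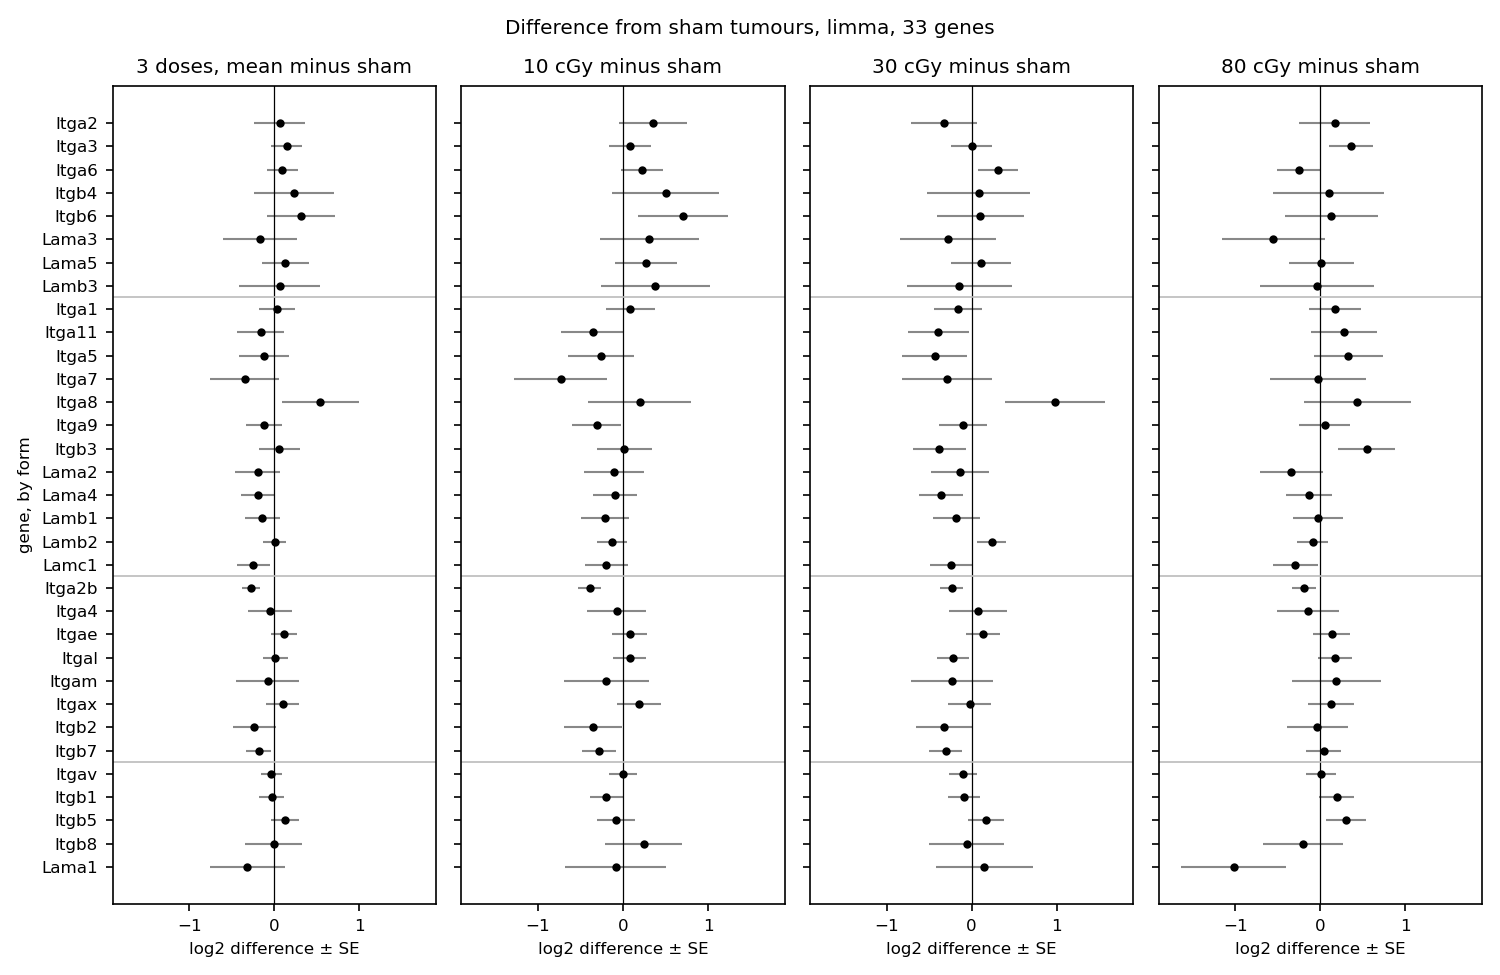
Log2 difference from sham tumours with its standard error (limma) for 33 genes by form, for the mean of the 3 doses and for 10, 30 and 80 cGy (n = 9, 10 and 8 tumours against 18). At 10 cGy all 8 basal and epithelial genes lie right of 0, and no gene passed an adjusted p of 0.05 in any panel.

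Other genes of adhesion were also given with the hosts. Of the hemidesmosome and basement membrane list 11 genes were kept, of other integrin ligands 9 and of adaptors and kinases 25, and 0 of these 45 genes passed the adjusted threshold in any comparison with sham. The smallest unadjusted p were those of Npnt, the ligand nephronectin (0.67 ± 0.33), Tln1, the adaptor talin (-0.18 ± 0.10), and Plec, the hemidesmosome linker plectin (-0.21 ± 0.12), for exposed against sham hosts. At 10 cGy they were Tln1 (-0.30 ± 0.14), Vtn, the ligand vitronectin (-0.40 ± 0.25), and Tln2 (-0.30 ± 0.20). At 30 cGy Col4a5 (0.46 ± 0.24) and Dag1, the laminin receptor dystroglycan (0.52 ± 0.27), came before Plec (-0.24 ± 0.16). At 80 cGy Col17a1, a collagen that spans the membrane at hemidesmosomes, differed by -1.67 ± 0.68 (adjusted p = 0.674), Icam1, the ligand of Itgb2 receptors, by -0.78 ± 0.38 and Tns3, a tensin, by 0.45 ± 0.22. The mean basal marker score was -0.95 ± 0.80 (SD, n = 8) at 80 cGy and 0.23 ± 2.17 (n = 18) in sham tumours, and its part in the Col17a1 difference was not tested.

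The second comparison set each gene against marker scores of the cell types a mammary tumour can hold. A score is formed as given above for mast cells, and a slope is the log2 change of a gene per log2 unit of the score, fitted by limma with the host group in the model. The markers used contain none of the 33 genes. In bulk tumours, fewer cells of a type and less RNA per cell cannot be told apart. The scores also move with each other: macrophages with fibroblasts at r = 0.670 and with basal epithelium at r = -0.619, and fibroblasts with endothelium at r = 0.568. A cut at -1 on the score of epithelial junctions (Cdh1, Epcam, claudins, Krt8 and others) set 9 tumours apart. Of these, 5 were sham, 1 at 10 cGy, 1 at 30 cGy and 2 at 80 cGy. These had scores of -3.83 to -1.06 where the other 36 had -0.66 or more, so the markers that define mammary epithelium were low in 9 of the 45 tumours. The highest of the 9, sham replicate 6 at -1.06, lay nearer to -0.66 than to the next of the 9, at -1.86. Slopes are given for 45 tumours, and calls without those 9 are given with each score.

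Of the 8 basal and epithelial genes 4 rose with the score of basal markers (Krt5, Krt14, Krt17, Trp63 and others), and none fell. Of the 33 genes 6 rose with the basal score against 8.54% of all genes, and 11 fell against 13.1%. Those that rose were Lamb3 (0.68 ± 0.08), Lama3 (0.67 ± 0.07), Itgb4 (0.61 ± 0.09), Itgb6 (0.52 ± 0.08), Lama1 (0.49 ± 0.10) and Itgb8 (0.35 ± 0.08). Itga6, the alpha chain of the same receptor as Itgb4, had a slope of 0.06 ± 0.05 and did not pass (adjusted p = 0.397), and neither did Itga2 (0.19 ± 0.08), Itga3 or Lama5. Genes that fell were Itga5, Itga7, Itga9, Itgb3, Lamb1, Itgb1 and, among leukocyte and platelet genes, Itga2b, Itga4, Itgam, Itgb2 and Itgb7. Without the 9 tumours of low junction score 5 genes were called: Lama3 (0.67), Lamb3 (0.42), Itgb4 (0.25) and Lama1 (0.44) rose and Itgb3 (-0.27) fell. The slope of Lama3 was thus 0.67 in both sets, while that of Itgb4 was 0.61 with all 45 tumours and 0.25 without the 9. With the other 6 scores as covariates, a choice made after values were seen, Lama3 (0.70), Lamb3 (0.51), Itgb6 (0.42) and Itgb4 (0.25) were again called, with Itga2 (0.33) and Itgae (0.13).

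Junction markers went with epithelial genes across all 45 tumours, and the calls of those genes were lost without the 9 tumours of low score. With all 45 tumours, 9 of 33 genes rose with the junction score (15.6% of all genes did) and 10 fell (18.5% did). Itgb4 had a slope of 0.90 ± 0.07, Lamb3 of 0.78 ± 0.10, Itgb6 of 0.68 ± 0.08, Itga8 of 0.64 ± 0.11, Lama3 of 0.45 ± 0.13, Lama5 of 0.31 ± 0.08 and Itga6 of 0.16 ± 0.05, all of them called, as were Itgb8 and Lama1. Of these, Itga8 is the one gene listed as stromal. Those that fell included Itga7 (-0.65 ± 0.09), Itgam (-0.47 ± 0.10), Itga5 (-0.42 ± 0.07) and Itga4 (-0.36 ± 0.07). Without the 9 tumours 3 genes were called, all falling (Itga5 at -0.74, Lamb1 at -0.71 and Lamc1 at -0.50). Then the slope of Lamb3 was 0.0013 ± 0.26 and that of Itgb4 0.49 ± 0.18 (adjusted p = 0.069). Slopes of Itga8 (0.75 ± 0.28), Itgb8 (0.61 ± 0.22), Lama5 (0.27 ± 0.15) and Itga6 (0.20 ± 0.13) stayed near or above those with 45 tumours. Those of Itgb6 (0.19 ± 0.21), Lama3 (-0.35 ± 0.34) and Lama1 (-0.11 ± 0.37) were lower. The range of scores was narrower and these standard errors were larger, so a lost call does not show that a relation was absent. With the other 6 scores as covariates and all 45 tumours, 5 of 8 basal and epithelial genes rose: Itgb4 (0.71), Lamb3 (0.47), Itgb6 (0.44), Lama5 (0.32) and Itga6 (0.26). Lama3 was then at 0.03 (adjusted p = 0.872) and not called. Itga8 (0.87), Lama2, Itgb3, Itgae, Itgax and Itgb8 rose as well, and Itga7, Itga5 and Itgam fell. Across the 9 tumours Itgb4 lay between 5.59 and 7.66, Itgb6 between 4.38 and 6.97, Lamb3 between 4.81 and 6.22, and Lama3 between 4.75 and 6.12. The upper ends of Itgb6, Lamb3 and Lama3 are those of sham replicate 6, whose score of -1.06 is the nearest to the threshold, and without it these genes were at most 5.07, 5.43 and 5.49. Itga6 stayed between 9.77 and 11.88 in the same tumours.

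Fibroblast markers (collagens, Dcn, Lum, Pdgfra and others) went with stromal and leukocyte genes together. With this score 13 of 33 genes rose, against 14.1% of all genes, and 4 fell, against 14.7%. Itga11 rose by 0.76 ± 0.09, Itga5 by 0.73 ± 0.11, Itga7 by 0.68 ± 0.19, Lama2 by 0.52 ± 0.11, Lamb1 by 0.47 ± 0.09, Itgb3 by 0.39 ± 0.11 and Lama4 by 0.27 ± 0.09. Itgam rose by 0.86 ± 0.15, Itgb2 by 0.65 ± 0.09, Itga4 by 0.62 ± 0.10 and Itgb7 by 0.32 ± 0.06, as did Itgb1 and Itgb5. Lama1 (-0.77 ± 0.20), Itga6, Lama5 and Itgb8 fell. All 17 calls held without the 9 tumours of low junction score. The call of Lama4 was lost without 1 tumour in 3 cases (80 cGy replicate 7, 10 cGy replicate 3 or sham replicate 7), where its slope was 0.23, 0.23 and 0.24. With the other 6 scores in the model 1 gene was called, Itga11, at 1.0.

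Vessel markers (Pecam1, Cdh5, Kdr and others) had 12 of 33 genes rise with them, against 11.1% of all genes, and 3 fall, against 8.74%. Of the 12 stromal, vascular and muscle genes 9 rose: Itga5 (0.83 ± 0.14), Lama2 (0.78 ± 0.12), Itga1 (0.74 ± 0.08), Itga7 (0.67 ± 0.25), Itgb3 (0.64 ± 0.12), Lamb1 (0.56 ± 0.11), Lama4 (0.47 ± 0.11), Lamc1 (0.46 ± 0.10) and Itga9 (0.40 ± 0.13). Itgb8 (-0.94 ± 0.17), Itgb4 and Itgb6 fell. Without the 9 tumours 8 of these 15 calls held, among them Itga1 (0.68), Lama2 (1.03) and Itgb3 (0.67), and Lama4 (0.42) was no longer called (adjusted p = 0.097). With the other 6 scores as covariates Itga1 (0.92), Lama2 (0.81), Itgb3 (0.59) and Lama4 (0.51) were called among the stromal, vascular and muscle genes. Genes of other forms were called too: Itga2 (0.97), Lama5 (0.64), Itgax (0.59), Itga6 (0.48) and Itgb1 (0.37). In sham tumours alone, 3 of the 15 were called.

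Macrophage markers (Csf1r, Cd68, Adgre1 and others) separated the leukocyte alpha chains. Of the 33 genes 11 rose, against 16.3% of all genes, and 8 fell, against 15.6%. Itgam rose by 1.5 ± 0.10 per log2 unit of score (adjusted p = 5.76e-16), Itgb2 by 1.02 ± 0.07, Itga4 by 0.96 ± 0.09, Itgb7 by 0.45 ± 0.07 and Itgal by 0.32 ± 0.08. Itga7, Itga5, Itga11, Lamb1, Itgb5 and Itgb1 rose too, at 1.05, 0.75, 0.62, 0.43, 0.55 and 0.34. Lama1 (-1.28 ± 0.22), Itgb4 (-1.25 ± 0.25), Lamb3 (-1.18 ± 0.26), Lama3 (-1.09 ± 0.24), Lama5, Itga8, Itgb6 and Itga6 fell. Without the 9 tumours 14 of these 19 calls held: Itga7 (0.51), Lamb3 (-0.53), Itga8 (-0.07), Itgb6 (-0.20) and Itga6 (-0.15) were no longer called, and Lama2 (0.71) and Itgb3 (0.46) were called in addition. With the other 6 scores as covariates 4 genes were called, all of them leukocyte genes: Itgam (1.38), Itgb2 (0.91), Itga4 (0.64) and Itgal (0.44).

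Of the leukocyte and platelet genes, Itgax, Itgae and Itga2b were not called with all 45 tumours. The slope of Itgae was 0.13 ± 0.10 (limma adjusted p = 0.327) and that of Itga2b 0.15 ± 0.06 (adjusted p = 0.068). Itgax had a slope of -0.11 ± 0.13 (adjusted p = 0.561). Its values were low at both ends of the score, as the plot of relations across tumours shows. This slope turned to 0.22 without the 9 tumours of low junction score, 0.03 in sham tumours alone and 0.37 with the other scores as covariates. None of these was called. With the replicate block, a term for each replicate number, it was -0.51 and called. Only sham tumours have the numbers 11 to 18, so each of these is fitted by its own term. They add nothing to the slope in that block. Itgax, Itga3, Itgav, Itga2, Itgae and Lamb2 followed none of the 7 scores with all 45 tumours.

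**Figure D3:**
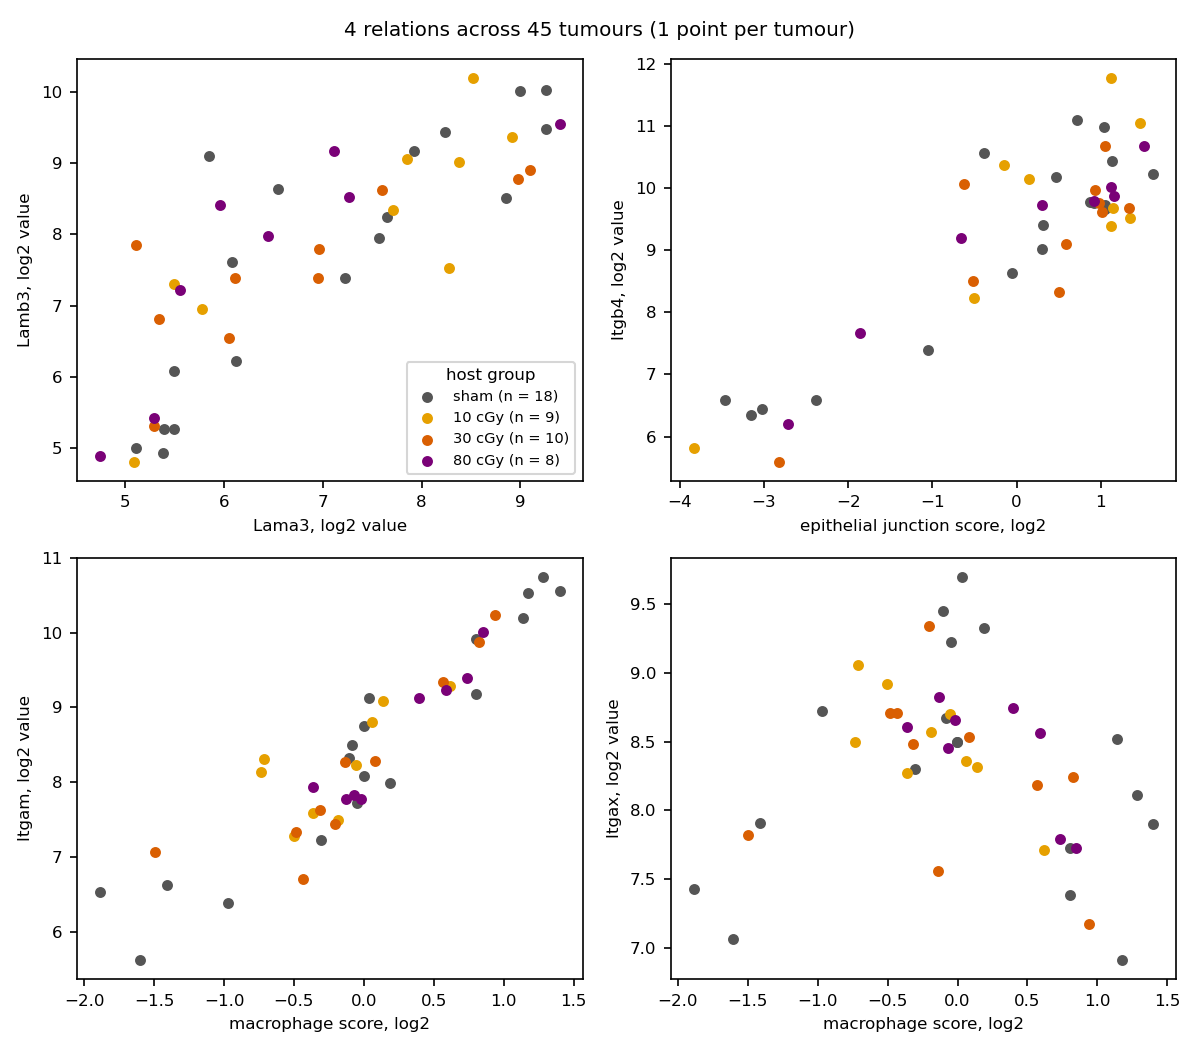
Lamb3 against Lama3, Itgb4 against the junction score, and Itgam and Itgax against the macrophage score (log2, 1 point per tumour, coloured by host group). Itgam climbs with the macrophage score (slope 1.5), Itgax does not (slope -0.11), and Itgb4 is low in the 9 tumours with a junction score under -1.

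T cell markers (5 of 10 listed were kept) had 3 genes rise, against 5.22% of all genes, and 3 fall, against 2.71%. Itga4 (0.80 ± 0.20), Itgal (0.48 ± 0.11) and Itgb7 (0.45 ± 0.12) rose, and Itgb4, Lamb3 and Itgb6 fell. None of the 6 was called without the 9 tumours of low junction score, where Itgae, the chain of E-cadherin-binding T cells, rose by 0.80 (adjusted p = 0.0020), nor with the replicate block. Skeletal muscle markers had 0 genes rise, against 1.51% of all genes, and 0 fall, against 0.19%. Itga7, the muscle chain, had a slope of 0.15 ± 0.10 there, which was called without the 9 tumours, at 0.27. Neutrophil and mast cell scores were added after values were seen. With neutrophil markers 5 genes rose (10.5% of all genes) and 7 fell (12.5%). The steepest rising slopes were those of Itgam (0.69 ± 0.11) and Itga5 (0.55 ± 0.09), and the steepest falling ones those of Itga8 (-0.76 ± 0.15) and Lama1 (-0.65 ± 0.15). Without the 9 tumours 5 of those 12 calls held. With mast cell markers 7 rose (9.18%) and 3 fell (5.12%). Itgam (0.53 ± 0.13) and Lama2 (0.49 ± 0.08) rose most steeply and Itgb4 (-0.54 ± 0.17) and Itgb6 (-0.49 ± 0.14) fell most steeply. Without the 9 tumours 7 of those 10 calls held.

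**Figure D4:**
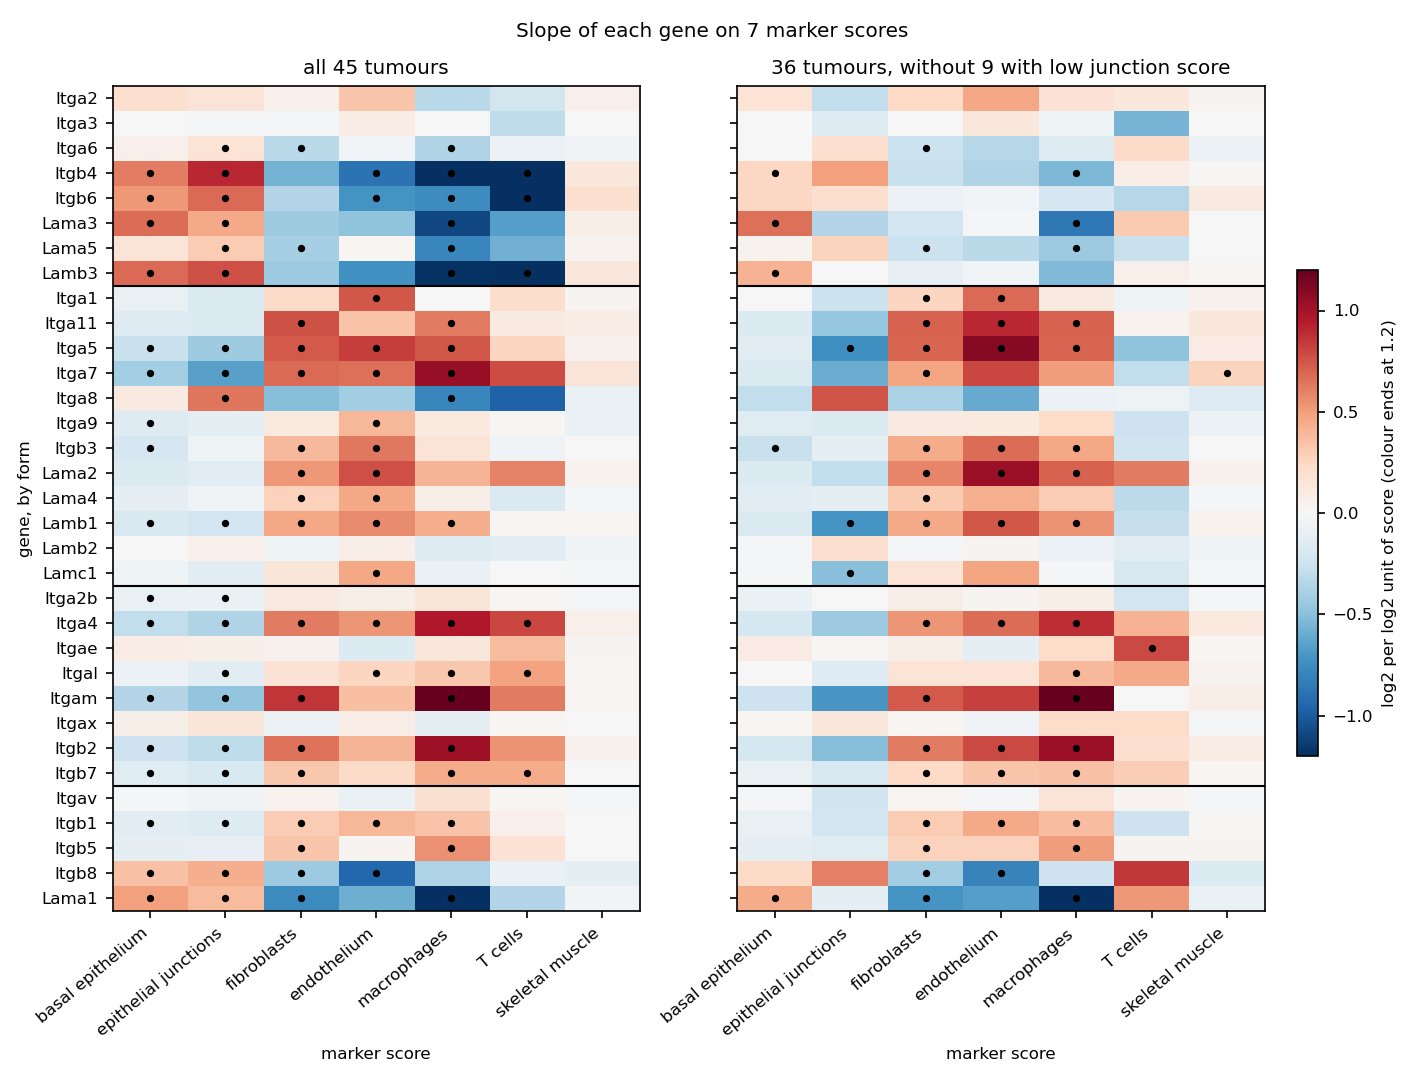
Slope of each of the 33 genes (rows, by form) on 7 marker scores, as log2 per log2 unit of score, for all 45 tumours and for 36 without the 9 of low junction score. A dot marks an adjusted p under 0.05 (limma): the junction column loses its epithelial dots in the right panel, and the fibroblast column keeps its own.

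The slopes were then compared between exposed and sham hosts. An interaction term, added after values were seen, was called for 0 of the genes tested in each of the 9 scores, with 0 of the 33. At an unadjusted p under 0.05, 5 of the 33 passed for the fibroblast score, against 6.52% of all genes, and 2 for endothelium, against 1.81%. The number was 1 each for junctions (2.18% of all genes), macrophages (3.38%), skeletal muscle (1.87%) and neutrophils (3.93%), and 0 each for basal epithelium (1.52%), T cells (1.54%) and mast cells (3.51%). A miss of this kind does not show that the slopes were alike.

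The pathway lists were set against the same scores, where the shares of all genes that rose and fell were 8.54% and 13.1% for basal epithelium, 14.1% and 14.7% for fibroblasts and 16.3% and 15.6% for macrophages. Of the hemidesmosome and basement membrane list, 3 of 11 rose and 3 fell with the basal score, of other ligands 2 of 9 rose and 4 fell and of adaptors and kinases 2 of 25 rose, near the share of all genes, and 9 fell. The steepest slopes were those of Col17a1 (0.82 ± 0.05), Tns4, an epithelial tensin (0.67 ± 0.09), and Fermt1, the epithelial kindlin (0.63 ± 0.11), and on the falling side Parvb, a parvin (-0.50 ± 0.08), Npnt (-0.31 ± 0.08) and Nid1, a linker of laminin to collagen IV (-0.30 ± 0.06). With the fibroblast score 3, 4 and 8 genes of these lists rose and 3, 1 and 1 fell. Parvb (0.85 ± 0.16), Nid1 (0.80 ± 0.08) and Fn1, the ligand fibronectin (0.61 ± 0.09), were steepest, while Col17a1 fell (-0.85 ± 0.22). The next steepest falling slopes, Tns4 (-0.58 ± 0.24) and Fermt1 (-0.51 ± 0.27), did not pass. With the macrophage score 3, 2 and 11 rose and 3, 0 and 2 fell. Parvb (1.16 ± 0.19), Apbb1ip, the leukocyte adaptor that recruits talin (1.05 ± 0.07), and Nid1 (0.85 ± 0.14) rose, and Col17a1 (-1.38 ± 0.25), Fermt1 (-1.28 ± 0.29) and Tns4 (-1.09 ± 0.28) fell.

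Chains that build 1 protein were then compared with each other. Of 40 partner pairs listed from textbook knowledge, 38 had both genes measured and 36 had both kept. Their median Pearson r over the 45 tumours was 0.361, against 0.083 over all 528 pairs of the 33 genes. The 528 pairs include those between forms. Within a form, the median r was 0.443 (basal and epithelial), 0.371 (stromal, vascular and muscle) and 0.358 (leukocyte and platelet). The partner median lay within the range of these values. A positive r passed in 20 pairs (two-sided permutation test, 100000 resamples, Benjamini-Hochberg over the 36 pairs) and a negative one in 0. Pairs of genes that are not partners were not tested, so whether partners pass more often is not known.

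The most alike partners were of different forms. Itgam and Itgb2 had r = 0.925 and Spearman's rho = 0.913, and Lama3 and Lamb3 had r = 0.823 and rho = 0.849, both with permutation p = 1e-05, the smallest that 100000 resamples can give, and adjusted p = 9e-05. Itga5 with Itgb1, the fibronectin receptor, had r = 0.790 and rho = 0.756, and Itga4 with Itgb7 r = 0.722 and rho = 0.724, with the same p. Without the 2 tumours farthest from the median of the first gene, these 4 pairs had r = 0.915, 0.807, 0.749 and 0.698. Itgal with Itgb2 had r = 0.595 and rho = 0.594 (permutation p = 8e-05 and 7e-05, adjusted p = 0.00048 and 0.00036), and 0.489 without those 2. Among the tumours of exposed hosts alone, Itgal with Itgb2 had r = 0.259 and was not called, and neither was Itga4 with Itgb7 (r = 0.439).

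Other partners were less alike. Itga6 and Itgb4, the hemidesmosome receptor, had r = 0.416 and rho = 0.372 (permutation p = 0.0045 and 0.013, adjusted p = 0.011 and 0.029). Their r was 0.289 without the 2 farthest tumours and 0.083 without the 9 of low junction score. Those 9 hold the lowest Itgb4 values, 5.59 to 7.66, so leaving them out narrows its range. The cause of the lower r was not tested. Itgax and Itgb2 had r = -0.088 and rho = -0.185 (permutation p = 0.57 and 0.22, adjusted p = 0.62 and 0.27). Itgae and Itgb7 had r = 0.124 and rho = 0.190 (permutation p = 0.42 and 0.21, adjusted p = 0.47 and 0.26). Itgav had r = 0.049 with Itgb3, 0.016 with Itgb6 and 0.0011 with Itgb8, none of them called. Some listed partners had a negative r, also not called. Itga8 with Itgb1 had the lowest of the 36, at -0.322, Lama1 with Lamb1 had -0.305 and Itga6 with Itgb1 -0.293. Across the 3 laminin chains of stroma and vessels, Lamb1 with Lamc1 had r = 0.570, Lama4 with Lamb1 0.551 and Lama2 with Lamc1 0.533, all called. Lama5, the epithelial alpha chain, had r = -0.203 with Lamb1 and 0.153 with Lamc1, neither called, and 0.366 with Lamb2, which was called (permutation p = 0.0139, adjusted p = 0.0278).

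Pairs were also set side by side by form. The median r was 0.443 over the 28 pairs of basal and epithelial genes, 0.371 over 66 pairs of stromal, vascular and muscle genes and 0.358 over 28 pairs of leukocyte and platelet genes. Between epithelial and leukocyte genes it was -0.277 (64 pairs), between epithelial and stromal genes -0.099 (96 pairs) and between leukocyte and stromal genes 0.144 (96 pairs, 64 of them positive). Within the 5 broad or other genes it was -0.039 (10 pairs), and between these and leukocyte genes 0.106 (40 pairs). Itgb4 had r = 0.873 with Lamb3 and 0.826 with Itgb6, and Itgam had r = -0.231 with its neighbour gene Itgax. These correlations describe the same 45 arrays, share the array scaling and carry no p.

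The genes of the array most like 3 of the members are given as a description, by Pearson r over the 45 tumours. Most like Itgb4 were Esrp1, an epithelial splicing factor (0.935), Epcam (0.917), Cdh1, which encodes E-cadherin (0.911), Grhl2, an epithelial transcription factor (0.910), and Cdcp1 (0.908). Esrp1, Epcam and Cdh1 are also markers of the junction score. Most like Itgb2 were Myo1g (0.960), Nfam1 (0.944), Arhgap30 (0.942), Fcgr2b, an inhibitory antibody receptor (0.942), and Cd53, a tetraspanin of leukocytes (0.940). Most like Lama4 were AF357355 (0.752), Itgb3 (0.746), Fbxl7 (0.723), Rnf144a (0.718) and Itga9 (0.715). Itgax was added after values were seen: H2-Ab1 (0.709), H2-Aa (0.708) and H2-Eb1 (0.679), which encode MHC class II chains, and Ciita (0.689), the activator of those genes, were among its 5 nearest, with Atp8b1 (0.703).

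Position on the genome was a further property that the choice of genes did not use, and it was looked at after values were seen. For each of the 33 genes the 50 kept genes with the highest r were taken, among 12114 kept genes with a chromosome in RefSeq. For Itga3, which followed none of the 7 scores, 32 of those 50 (64.0%) lay on its own chromosome, chromosome 11, which holds 8.40% of the kept genes, and their starts spanned 101 Mb. The most alike were Cdc27 (r = 0.566), Cct4 (0.560) and Mettl16 (0.559). For Lama5 it was 16 of 50 on chromosome 2 (32.0% against 7.83% of kept genes), for Itgb1 14 on chromosome 8 (28.0% against 5.19%), for Lamb2 11 on chromosome 9 (22.0% against 5.62%) and for Lamb1 10 on chromosome 12 (20% against 3.35%). Itgb1 had N4bp1 (0.847), Ripor1 (0.840) and Glg1 (0.800) of chromosome 8 among its nearest. Itgb4 is on chromosome 11 too, but had 4 of 50 there (8.0%).

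The same measure over all kept genes shows that a high share is common in these tumours. Its median was 16.0% over the 12114 genes and 6.0% over the 33 members, and 9.18% of all genes had a share as high as that of Itga3. More than 2 times the share of kept genes on the chromosome was found in 61.6% of all genes and in 21.2% of the members, 7 of 33. These correlations come from the same 45 arrays and have no p.

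**Figure D5:**
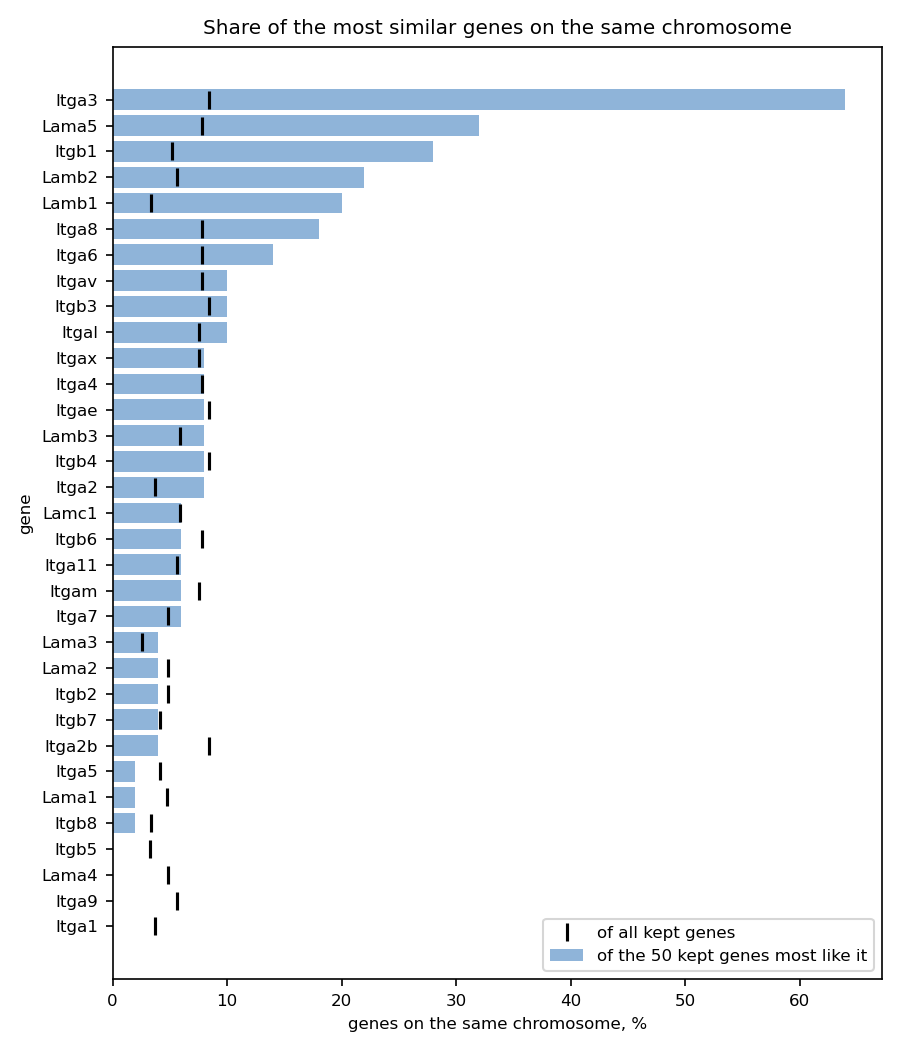
Percent of the 50 kept genes most like each of the 33 genes (Pearson r, 45 tumours) that lie on the same chromosome (bars), with the percent of all kept genes on that chromosome (black marks). Itga3 reaches 64.0%, and most members lie near their mark.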

How the data were processed

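RNA of 45 tumours was hybridised to Affymetrix Mouse Gene ST arrays, 1 array per tumour. The authors deposited log2 values made by RMA with the oligo package, per the submitters' processing notes. Their versions and the genome build: not given in the sources used here. Array medians ran from 5.48 to 5.80. Of 35556 probe sets, 21218 carried 1 gene symbol, 1881 several and 12457 none; those with 1 were used, with the highest-mean probe set per gene. Genes above the table's median in 8 or more tumours were kept. limma 3.58.1 in R 4.3.3 (lmFit, eBayes, two-sided, Benjamini-Hochberg over all kept genes) tested host groups and slopes on marker scores, and was tested on simulated data. Permutation tests used Python 3.11.15 and numpy 2.4.6. The number of arrays limits the precision.

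All members were given with their range. Values by group were given for the 3 smallest p per host comparison, the 8 largest SDs and a list of hemidesmosome, stromal and leukocyte chains. Members and lists were chosen with earlier results of these data known. Promoters came from RefSeq. Alternatives were another filter, probe set averaging, array weights, centring, blocks, subsets of tumours and leaving out each tumour.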

Additional observations from a re-analysis of the deposited data

Results flagged for a closer look

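Dixon's test, for 1 tumour far from the others, was run on each kept integrin or laminin gene in each dose group. Sham tumours were not tested, so their absence from the tumours named here is not a result. In 7 of these 99 tests 1 tumour lay far from the others of its group, where chance gives about 1 in 20. The tests are not independent, as 30 cGy replicate 4 and 10 cGy replicate 1 were each flagged for more than 1 gene. At 30 cGy, replicate 4 had the lowest Itgb4 (5.59, next 8.33), Itgb6 (4.74, next 6.38) and Itga2 (6.62, next 7.73), and its epithelial junction score was -2.82. At 10 cGy, replicate 1 had the lowest Itgb8 (5.13, next 7.72) and the highest Itga9 (9.59, next 8.00), and its junction score was -3.83. Both belong to the 9 tumours of low junction score. At 30 cGy, replicate 1 had the highest Lama2 (8.47, next 7.37). At 80 cGy, replicate 1 had the highest Itga1 (8.65, next 7.92). The part of these tumours' cell content in those values was not tested.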

How the results depend on the processing

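The 6 tests on host group or dose called 0 members under every alternative run. Counts of called members on marker scores changed more. For the basal score, 17 became 11 with a replicate block, 5 without the 9 tumours of low junction score, 8 in sham tumours alone, 4 in tumours of exposed hosts alone and 6 with the other 6 scores as covariates. For junctions, 19 became 3 without the 9 tumours. For fibroblasts, 17 became 10 in exposed hosts alone and 1 with the other scores. For endothelium, 15 became 8 with the replicate block, 3 in sham tumours and 9 with the other scores. For macrophages, 19 became 4 with the other scores. For T cells, 6 became 0 with the replicate block, 10 with array weights, 1 without the 9 tumours, 0 in sham tumours, 0 in exposed hosts and 1 with the other scores. For skeletal muscle, 0 became 1 without the 9 tumours. For neutrophils, 12 became 19 with array weights, 7 without the 9 tumours, 6 in sham tumours and 3 in exposed hosts. For mast cells, 10 became 2 with the replicate block, 6 in sham tumours and 0 in exposed hosts. Of partner pairs, 20 became 7 in sham tumours, 11 in exposed hosts and 10 without the 9 tumours. Subsets hold fewer tumours. The replicate block in effect does too: sham replicates 11 to 18 share their number with no other tumour and add nothing to a slope. Otherwise the cause was not tested.

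Leaving out each tumour in turn gave 16 to 18 called members for the basal score, 18 to 20 for junctions, 15 to 18 for fibroblasts, 10 to 18 for endothelium, 18 to 21 for macrophages, 5 to 8 for T cells, 0 for skeletal muscle, 10 to 15 for neutrophils, 8 to 15 for mast cells and 0 for each host or dose test. Among single genes, the Itga3 difference at 80 cGy turned to -0.091 without tumours of high muscle or fat score. The Itga6 slope on the basal score turned to -0.032 with the other scores. The Itgax slope on the macrophage score turned to 0.22 without the 9 tumours, 0.026 in sham tumours and 0.37 with the other scores. Replicate numbers did not pair tumours: same-numbered tumours of different groups had a median correlation of -0.07 over 52 pairs (-0.52 to 0.34). Tumours sharing a description code, whose meaning the labels do not give, had a median correlation of -0.01 over 8 pairs (-0.11 to 0.69). For tumours of 1 group with different codes it was lower, at -0.12 over 254 pairs (-0.63 to 0.75). Group means were removed before these correlations. The consensus correlation within a code was 0.241. Signal limits Itga2b, Itgb7 and Itgae, which lay above the median of the whole table in 21, 12 and 8 tumours.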
